A study of Mus musculus with 72 samples.

Results

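The comparison described here is that of 6 male and 6 female DBA2/J mice fed AL (food freely available), 12 of the 72 liver arrays of a study that crossed strain, sex and diet. All 12 mice had eaten a standard chow, had food until they were killed, and were killed at 23 to 24 months of age, so the values are those of old animals. DBA2/J is an inbred strain bred in house by the study. Each array is labelled as the liver of one mouse, and the groups were killed over a few days. Genes were taken as autosomal when their symbol is placed on chromosomes 1 to 19, and a probe was used when its signal was above background (detection p under 0.01) on 6 or more of the 12 arrays. This gave 8521 autosomal probes, out of 23079 autosomal probes on the array, for 6512 genes. For reference, the same contrast was computed in C57BL/6J mice fed AL and in DBA2/J mice on caloric restriction (CR) of 20% or 40% from 6 months of age, with 6 mice of each sex in each. CR mice did not get their ration on the day they were killed whereas AL mice ate until then, so amount of food and time since the last meal cannot be told apart. No hormone was measured or changed in these groups, so the sex difference is described as such.

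The livers of male and female mice express different sets of genes for metabolism and secreted proteins. Much of this difference is set by the pattern of growth hormone release from the pituitary, which comes in pulses in males and is more continuous in females, and which acts on hepatocytes through the receptor Ghr, the kinase Jak2 and the transcription factor STAT5. Classical male products of the mouse liver are the major urinary proteins and certain cytochromes P450 of the Cyp2d, Cyp4a and Cyp7b families. Classical female products include members of the Cyp2a, Cyp2b and Cyp3a families and several sulfotransferases. Gonadal steroids act upstream of the hormone pattern and in part directly on the liver.

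The share of probes detected on an array was 33.9% to 39.7% in males and 32.6% to 39.2% in females, with means of 36.1% ± 2.05 and 36.1% ± 2.16 (SD, n = 6 each). The sex of the labels was checked on 4 genes that the autosomal rule leaves out. Xist, which is expressed from the inactive X chromosome, was detected on 6 of 6 female and 0 of 6 male arrays, and Eif2s3y, a Y-linked gene, on 6 of 6 male and 0 of 6 female arrays. The Y-linked genes Uty (1 male and 1 female array) and Kdm5d (1 male array) were detected too rarely to tell. Hepatocyte markers were bright on every array, with a mean log2 level of 12 genes between 11.7 and 12.3. The array of male 13 resembled the female arrays (mean correlation 0.953 across probes) more than the other males (0.939), and male 2 did so slightly (0.957 against 0.954), although Xist and Eif2s3y were as in males on both. Males 3, 4 and 13 stood apart from males 1, 2 and 9 in macrophage and antigen-presentation genes, and male 13 and female 4 in neutrophil genes, as given below. Where a call was seen to be lost without these sets of arrays, this is given beside it. For genes chosen after their values were seen, only list counts were available, so some losses may be missed.

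Sequences upstream of 6 of the genes described below are shown first, because these genes are either near copies of each other or carry the one motif searched. All come from RefSeq (assembly GRCm38.p6), are written 5′ to 3′ on the gene's strand, and lie within the 250 bases before the annotated start. Cyp2b9 and Cyp2b13 are neighbouring female-type P450 genes whose sex differences are compared below. Over the 143 bases shown, from base 250 to base 108 before the start, they were identical at 141 positions (98.6%), and capitals mark the others, T48C and C104T from Cyp2b9 to Cyp2b13 with positions counted from the 5′ end. Cyp2b9 lies at chr7:26173159-26173301 and Cyp2b13 at chr7:26061245-26061387, both on the plus strand.
Cyp2b9: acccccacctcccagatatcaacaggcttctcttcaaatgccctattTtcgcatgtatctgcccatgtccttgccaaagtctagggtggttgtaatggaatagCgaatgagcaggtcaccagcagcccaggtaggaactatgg
Cyp2b13: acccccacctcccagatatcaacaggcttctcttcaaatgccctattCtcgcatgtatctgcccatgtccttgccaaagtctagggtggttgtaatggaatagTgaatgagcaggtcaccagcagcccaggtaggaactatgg

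Gstp1 and Gstp2 are the neighbouring genes for the pi-class glutathione transferases, one of which had a sex difference far larger than the other. Their windows, at chr19:4037913-4038162 and chr19:4042222-4042471 on the minus strand, matched at 207 of 265 aligned columns (78.1%), with 30 gap columns, and capitals mark what differs.
Gstp1: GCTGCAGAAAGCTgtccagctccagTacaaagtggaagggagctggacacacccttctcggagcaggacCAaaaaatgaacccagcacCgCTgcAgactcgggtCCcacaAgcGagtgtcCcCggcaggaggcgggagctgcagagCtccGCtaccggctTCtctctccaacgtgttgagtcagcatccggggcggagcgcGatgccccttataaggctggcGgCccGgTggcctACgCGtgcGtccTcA
Gstp2: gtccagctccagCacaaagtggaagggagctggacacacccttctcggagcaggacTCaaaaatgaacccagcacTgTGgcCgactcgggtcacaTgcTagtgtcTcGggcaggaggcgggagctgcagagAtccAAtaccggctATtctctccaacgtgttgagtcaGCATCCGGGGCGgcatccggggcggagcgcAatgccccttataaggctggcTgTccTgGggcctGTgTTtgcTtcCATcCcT

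The motif searched was TTCNNNGAA, the palindrome that STAT5 binds, which reads the same on both strands. Of all 32851 windows of 250 bases in the table, 7.02% held it. It was found in 388 of 5327 tested autosomal genes with a window (7.28%), in 4 of 65 genes higher in males (6.15%) and in 7 of 109 higher in females (6.42%), so the called genes were close to the background. Of the 24 genes of largest difference 19 had a window, and the motif was present in Keg1, higher in males (chr19:12695540-12695789, plus strand, 2 matches), and in Slc22a26, higher in females (chr19:7802668-7802917, minus strand, 1 match). Capitals mark the matches. A match is a string of letters and was not tested as a binding site.
Keg1: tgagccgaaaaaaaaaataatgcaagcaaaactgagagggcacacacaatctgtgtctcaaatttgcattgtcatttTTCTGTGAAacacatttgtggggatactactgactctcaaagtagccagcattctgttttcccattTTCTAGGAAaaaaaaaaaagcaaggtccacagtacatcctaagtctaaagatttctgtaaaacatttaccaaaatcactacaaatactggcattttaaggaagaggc
Slc22a26: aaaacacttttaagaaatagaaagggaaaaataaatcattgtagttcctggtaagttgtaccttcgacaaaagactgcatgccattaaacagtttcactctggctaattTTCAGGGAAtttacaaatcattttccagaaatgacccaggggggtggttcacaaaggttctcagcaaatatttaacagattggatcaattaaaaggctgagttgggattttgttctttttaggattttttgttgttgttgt

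Livers of the old DBA2/J males had more mRNA for major urinary proteins, for the P450 genes Cyp4a12a, Cyp4a12b, Cyp2d9 and Cyp7b1, and for the pi-class glutathione transferase Gstp2, while those of females had more for Cyp2b13 and Cyp2b23, the transporter Slc22a26 and the steroid hydroxylase Cyp17a1. At an adjusted p under 0.05 (limma, Benjamini-Hochberg over all 9285 tested probes), 109 autosomal probes were higher in males (1.28% of 8521) and 160 were higher in females (1.88%). By gene, with the brightest probe standing for each, these were 83 of 6512 higher in males (1.27%) and 132 higher in females (2.03%). Most differences were small: 36 of the male-higher and 38 of the female-higher probes differed by 2-fold or more. The median log2 difference over all autosomal probes was -0.002. Levels are log2 intensities after background correction and normalization, on which a difference of 1 is a ratio of 2, and differences are male minus female with their standard error (SE). Since whole livers were measured, fewer cells of a type and less RNA per cell cannot be told apart.

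**Figure D1:**
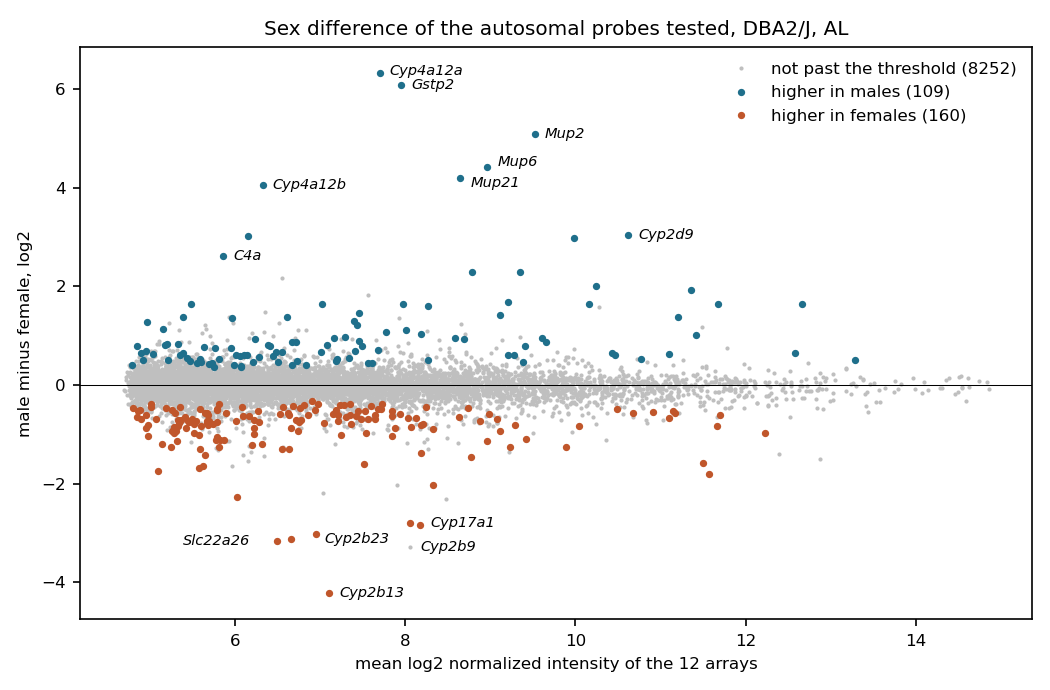
Male minus female difference (log2, y axis) against the mean log2 normalized intensity of the 12 arrays (x axis) for 8521 autosomal probes in DBA2/J mice fed AL. Blue points are the 109 probes higher in males and orange points the 160 higher in females at adjusted p under 0.05, and the male-higher probes reach 6.33 while the female-higher ones reach -4.22.

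The counts moved with which mice were in the comparison. Without males 3, 4 and 13, 278 probes were higher in males and 381 in females, of which 89 and 116 were among those reported. Without male 13 and female 4, they were 165 and 219. Without male 13 alone they were 195 and 233. Of the 24 genes of largest difference, 18 had groups that did not overlap, 10 of the 12 male-higher and 8 of the 12 female-higher. Over all 6512 genes, every male lay above every female in 1.11% and every female above every male in 1.84%. By probe these shares were 1.07% and 1.68%. These genes were named for their difference, so nothing is read from the counts.

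The 3 measured genes of the major urinary protein family, pheromone-binding proteins made in the liver and excreted in urine, were all higher in males.
Mup2 had log2 levels of 10.12, 12.20 and 13.23 (lowest, median and highest) in males and 4.45, 6.72 and 9.54 in females, a difference of 5.09 ± 0.84 or 34.1-fold (adjusted p = 0.00463). Every male lay above every female, but females 12 and 4 came close to male 13, at 9.54 and 9.15 against 10.12. A second, dimmer Mup2 probe differed by 1.06 and did not pass the test (adjusted p = 0.298), so the 2 probes disagree. Mup6 ran from 9.33 to 12.34 in males and from 4.63 to 8.94 in females (4.42 ± 0.74, adjusted p = 0.00477). Mup21 ran from 8.15 to 13.69 in males and from 5.60 to 8.24 in females (4.20 ± 0.75, adjusted p = 0.00794), and here female 4 lay above male 13. In all 3 genes male 13 was the lowest male. Mup genes are near copies of each other, and whether each probe reads 1 gene alone was not tested.

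Cyp4a12a and Cyp4a12b encode neighbouring fatty acid hydroxylases that are androgen-dependent in mouse liver and kidney. Cyp4a12a had the largest fitted sex difference of any autosomal probe, with levels of 8.83, 10.90 and 12.51 (lowest, median and highest) in males and 4.25, 4.38 and 5.29 in females. The difference was 6.33 ± 0.49, or 80.4-fold (adjusted p = 7.68e-06), and the probe was detected on 1 of 6 female arrays, so the size of the fold rests on female values mostly at background. Female 4 was the highest female. Cyp4a12b was detected on 6 of 6 male and 0 of 6 female arrays, with male levels from 6.70 to 9.76, so that males were at least 11.2-fold higher (adjusted p = 2.39e-05). The female value in this ratio is the lowest signal of any detected probe on each female array, or the probe's own where higher, so it is a bound. The Cyp4a12b probe passed the detection filter through the males alone, so a difference was built in and its p is no support.

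Cyp2d9, a testosterone 16-alpha-hydroxylase, ran from 11.31 to 12.54 in males and from 8.14 to 11.10 in females (3.04 ± 0.40, adjusted p = 0.00102). Female 4 was 2 log2 units above the other females and just below the lowest male. Cyp7b1, which hydroxylates oxysterols and steroids, had levels of 11.01, 11.32 and 12.56 in males and 7.83, 8.53 and 9.09 in females (2.99 ± 0.27, 7.92-fold, adjusted p = 2.79e-05). The groups were far apart, and male 9 stood above the other males, which ended at 11.54.

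Gstp2 showed the smallest adjusted p of the autosomal probes, 2.39e-08. Its levels were 9.86, 11.16 and 11.79 (lowest, median and highest) in males and 4.48, 5.05 and 5.18 in females, a difference of 6.09 ± 0.28 or 67.9-fold. The Gstp2 probe was detected on 3 of 6 female arrays, so the size of the fold rests in part on female values at background. Gstp1, its neighbour shown above, ran from 12.76 to 13.97 in males and from 11.35 to 12.96 in females (1.64 ± 0.28, adjusted p = 0.00497). Both conjugate glutathione to electrophiles. A second Gstp1 probe differed by 1.93.

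Susd4, a complement regulator, ran from 6.03 to 8.46 in males and from 4.35 to 5.45 in females (3.02 ± 0.35, adjusted p = 0.000337). C4a, the gene of the sex-limited protein, a haemolytically weak copy of complement C4 known in mice for androgen control in some strains, ran from 6.29 to 7.65 in males and from 4.30 to 5.29 in females (2.61 ± 0.22, adjusted p = 2.06e-05). Both probes, like that of Nat8 below, were detected on 1 of 6 female arrays. The C4b probe of this region did not share the difference (0.03, adjusted p = 0.945). Keg1, a glycine acyltransferase relative, differed by 2.30 ± 0.51 (adjusted p = 0.0262) with overlapping groups, and its call was lost under 9 of 22 other settings. Selenbp2, a selenium-binding protein, differed by 2.01 ± 0.28 (adjusted p = 0.00125) with every male above every female.

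**Figure D2:**
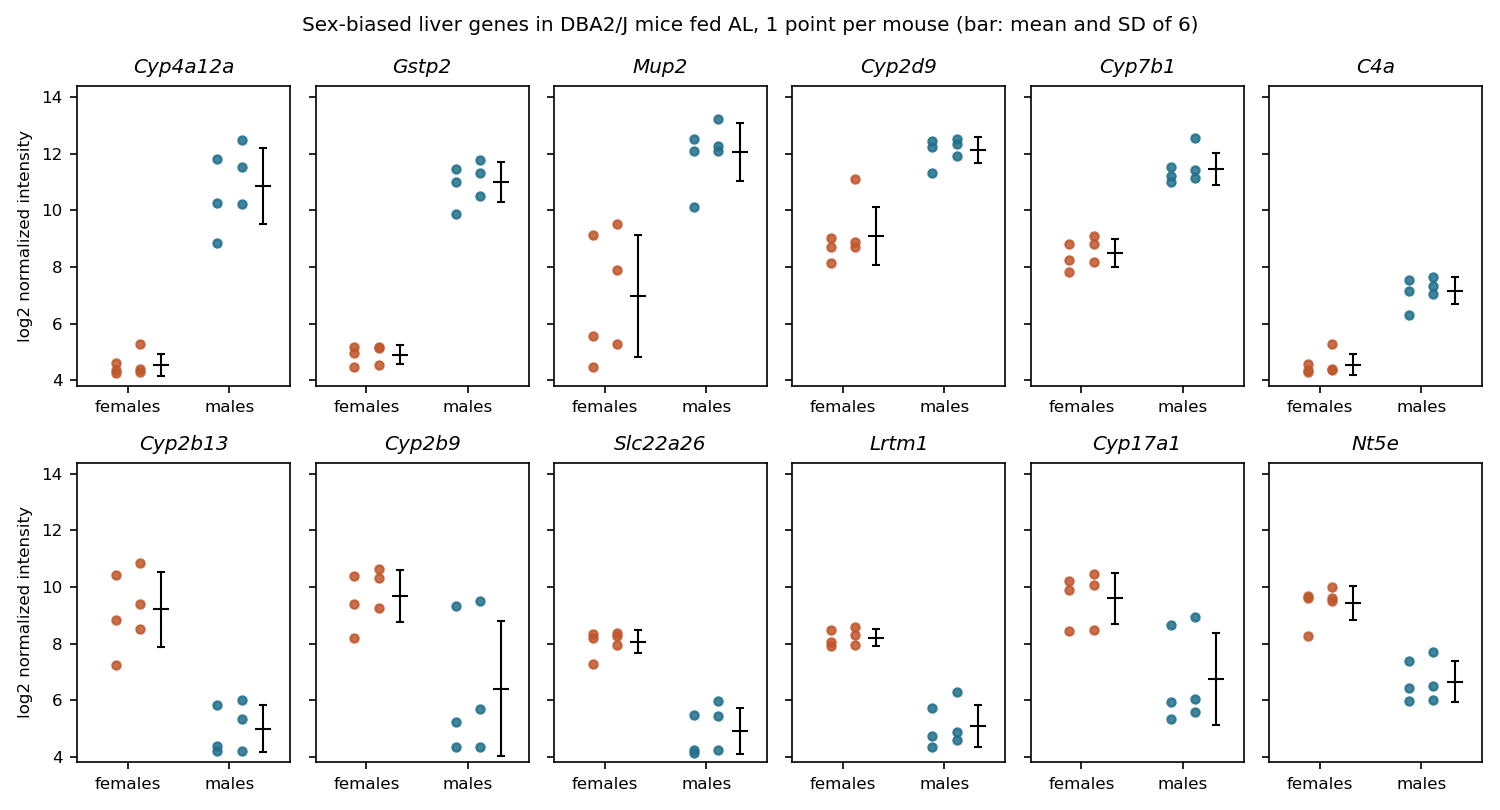
Log2 normalized intensity (y axis) of 12 genes in each of the 6 female (orange) and 6 male (blue) DBA2/J mice fed AL, with 1 point per mouse and the mean and SD as a bar. Cyp4a12a and Gstp2 separate fully, at 4.25 to 5.29 and 4.48 to 5.18 in females against 8.83 or more and 9.86 or more in males, whereas Cyp2b9 and Cyp17a1 have 2 males at female levels.

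Among genes higher in females, Cyp2b13 of the Cyp2b family, P450 enzymes of drug and steroid metabolism, came first. Cyp2b13 had levels of 7.24, 9.12 and 10.85 (lowest, median and highest) in females and 4.21, 4.85 and 6.02 in males, a difference of -4.22 ± 0.55 or 18.6-fold (adjusted p = 0.000977). It was detected on 6 of 6 female and 3 of 6 male arrays, and the groups did not overlap. Cyp2b23 ran from 7.04 to 9.64 in females and from 4.12 to 7.58 in males (-3.02 ± 0.65, adjusted p = 0.0219). Its probe, too, was detected on 3 of 6 male arrays. Cyp2b9, whose upstream sequence is nearly that of Cyp2b13, ran from 8.18 to 10.62 in females, but its difference of -3.28 ± 0.90 did not pass the test (adjusted p = 0.0656).

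The males differed among themselves in this family. In Cyp2b9, males 1 and 2 were at 9.52 and 9.33, inside the female range, while the other 4 were between 4.33 and 5.70. In Cyp2b23 the same males were at 7.58 and 7.20 and the others between 4.12 and 4.91. In Cyp2b13 males 1 and 2 were again the highest, at 6.02 and 5.82, and remained below every female. Cyp17a1, the steroid 17-alpha-hydroxylase, was at 8.94 in male 13 and 8.65 in male 2 and between 5.35 and 6.02 in the other males, against 8.44 to 10.46 in females (-2.85 ± 0.65, adjusted p = 0.0292). The calls of Cyp2b23 and Cyp17a1 depended on the arrays: without males 3, 4 and 13 the difference of Cyp2b23 was -2.16 (adjusted p = 0.0934), and leaving out female 6 or male 9, among others, ended both calls.

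Slc22a26, an organic anion transporter, had levels of 7.29, 8.24 and 8.36 in females and 4.12, 4.84 and 5.97 in males (-3.15 ± 0.32, adjusted p = 0.000104). Lrtm1, a leucine-rich repeat membrane protein, ran from 7.91 to 8.58 in females and from 4.35 to 6.28 in males (-3.11 ± 0.29, adjusted p = 3.65e-05), and its second probe differed by -2.28. Nt5e, the ectonucleotidase that makes adenosine outside the cell, ran from 8.27 to 10.02 in females and from 5.95 to 7.71 in males (-2.79 ± 0.34, adjusted p = 0.00057). These 3 genes separated the sexes on all 12 arrays. Slc22a26 and the first Lrtm1 probe were each detected on 3 of 6 male arrays.

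Rcan2, a regulator of the phosphatase calcineurin, was detected on 6 of 6 female and 0 of 6 male arrays, and females were at least 2.15-fold higher (adjusted p = 0.000107). Its probe passed the detection filter through the females alone, so a difference was built in and its p is no support. Dct, dopachrome tautomerase of the melanin pathway, differed by -2.03 ± 0.40 (adjusted p = 0.0133). Psg26, a pregnancy-specific glycoprotein, ran from 6.12 to 6.70 in females and from 4.31 to 5.87 in males (-1.68 ± 0.23, adjusted p = 0.00125). Slc41a3, a magnesium transporter relative, differed by -1.63 ± 0.23 (adjusted p = 0.00147). Psg26 was detected on 2 and Slc41a3 on 3 of 6 male arrays. Wfdc2, a secreted protease-inhibitor-like protein, and Niban2 differed by -1.60 ± 0.34 and -1.45 ± 0.27 with overlapping groups.

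A list of genes known as male-biased in mouse liver held 56, of which 44 were on the array with an autosomal place and 33 were tested. Of these, 16 were higher in males, 0 were higher in females and 17 did not pass the test, with a median log2 difference of 0.75 against -0.02 over all genes. Over all 6512 genes 1.27% were higher in males and 2.03% in females, the background for the counts of each list below. Besides those described, the complement components C6 (1.69 ± 0.23, adjusted p = 0.00119) and C8b (0.65 ± 0.15, adjusted p = 0.0321), the acetyltransferase Nat8 (1.65 ± 0.25, adjusted p = 0.00237), the glucuronosyltransferase Ugt2b1 (1.65 ± 0.28, adjusted p = 0.00521) and the protease inhibitor Serpina1e (0.75 ± 0.17, adjusted p = 0.0262) were higher in males. Members that did not pass included Socs2, the feedback inhibitor of growth hormone signalling, at -0.89 (adjusted p = 0.335) and Bcl6, a repressor of female-type genes, at -0.34 (adjusted p = 0.721).

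Of 21 tested genes listed as female-biased, 5 were higher in females, 0 were higher in males and 16 did not pass, with a median of -0.79. The 5 were Cyp2b13, Slc22a26, Cyp17a1, Cux2 and Ntrk2. Cux2, a transcription factor known as a female-specific repressor of male-type liver genes, ran from 4.68 to 6.30 in females and from 4.19 to 4.96 in males (-1.03 ± 0.26, adjusted p = 0.0477), and its call was lost without males 3, 4 and 13 (-1.06, adjusted p = 0.0695). Ntrk2, a neurotrophin receptor, differed by -0.79 ± 0.20 (adjusted p = 0.0496), and its call was also lost without males 3, 4 and 13. Of Cyp2a5, a coumarin hydroxylase, the brightest probe differed by -1.40 (adjusted p = 0.0556) while 2 others passed, at -1.81 (adjusted p = 0.0209) and -1.58 (adjusted p = 0.0418). Without males 3, 4 and 13 the list had 3 called and a median of -0.39, and without male 13 and female 4 it had 6 and -0.88. Both lists came from general knowledge of mouse liver but were chosen with earlier results of these data known. Their counts and medians are therefore a description and no independent support.

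**Figure D3:**
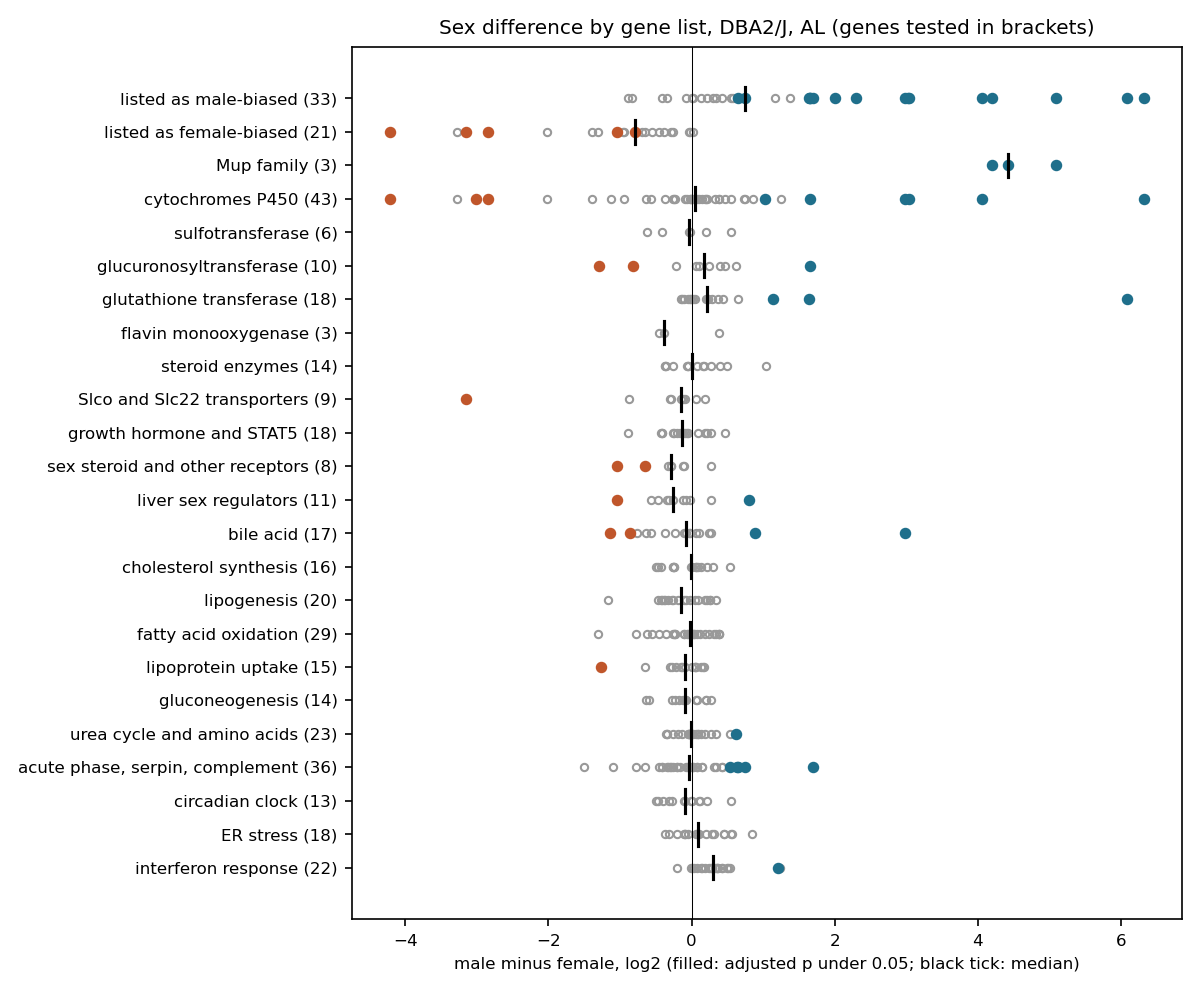
Male minus female difference (log2, x axis) of each tested gene in 24 gene lists (y axis, number of genes in brackets) in DBA2/J mice fed AL. Filled blue and orange points passed adjusted p under 0.05 and open points did not, and black ticks are medians, which lie at 0.75 for the male-biased list, -0.79 for the female-biased list and 4.42 for the Mup family.

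Enzymes of drug and steroid metabolism differed in both directions. Of 43 tested P450 genes, 6 were higher in males, 3 in females and 34 did not pass, and the median was 0.05. The shares over all genes were 1.27% and 2.03%. Beyond those above, Cyp2f2, a lung and liver P450 of naphthalene metabolism, ran from 12.14 to 12.96 in males and from 9.84 to 11.48 in females (1.65 ± 0.24, adjusted p = 0.0017), and Cyp2c67 differed by 1.02 ± 0.23 (adjusted p = 0.0276). The count of P450 genes higher in males was 10 without males 3, 4 and 13.

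Of 10 glucuronosyltransferase genes, Ugt2b1 was higher in males and Ugt3a2 (-0.82 ± 0.13, adjusted p = 0.00399) and Ugt1a2 (-1.29 ± 0.26, adjusted p = 0.0168) in females. Of 18 glutathione transferase genes, 3 were higher in males (Gstp2, Gstp1 and Gsta2) and 0 in females, against 1.27% and 2.03% of all genes. Gsta2, an alpha-class enzyme, ran from 4.44 to 6.51 in males and from 4.43 to 4.83 in females (1.13 ± 0.27, adjusted p = 0.0394). Of Mgst1, not counted here, the brightest probe differed by 0.44 (adjusted p = 0.0687) while a second passed, at 0.64 (adjusted p = 0.0219). None of 6 sulfotransferase and sulfate-activating genes, 3 flavin monooxygenase genes or 14 steroid-metabolizing genes passed the test in either direction. The largest of these by test statistic were Sult5a1 at 0.55 (adjusted p = 0.123), Fmo5 at 0.39 (adjusted p = 0.244) and Hsd17b11 at 0.50 (adjusted p = 0.0793). Of 9 Slco and Slc22 transporters, Slc22a26 alone was called.

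The growth hormone pathway itself showed no called member among 18 tested genes, with a median of -0.13. The receptor Ghr differed by -0.25 (adjusted p = 0.666), the kinase Jak2 by -0.16 (adjusted p = 0.431), Stat5a by -0.06 (adjusted p = 0.874) and the target Igf1 by -0.08 (adjusted p = 0.828). Socs2 ran from 6.04 to 9.21 in males and from 7.00 to 9.11 in females, with male 13 the highest of all mice. The largest statistic was that of Stat3 (-0.42, adjusted p = 0.188). A p that misses the threshold does not show that levels were equal.

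Of 8 nuclear receptors tested, 2 were higher in females, against 2.03% of all genes. Pparg, the receptor of lipid storage, ran from 6.00 to 6.63 in females and from 4.65 to 5.64 in males (-1.05 ± 0.17, adjusted p = 0.00399). Nr5a2, a regulator of bile acid synthesis, ran from 7.43 to 7.98 in females and from 6.57 to 7.29 in males (-0.65 ± 0.13, adjusted p = 0.0148). A second, dimmer Nr5a2 probe, detected on 3 male and 4 female arrays, differed by -0.18 and did not pass the test (adjusted p = 0.465). The oestrogen receptor Esr1 differed by -0.29 (adjusted p = 0.399). Among 11 transcription factors tied to liver sex bias or identity, Cux2 was higher in females and Foxa1, a pioneer factor, in males (0.80 ± 0.16, adjusted p = 0.0148), the latter from 4.66 to 5.64 in males and from 4.20 to 4.75 in females, close to background.

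Bile acid genes were called in both directions, 2 and 2 of 17, against 1.27% of all genes higher in males and 2.03% in females. Cyp7b1 and Baat, which conjugates bile acids to taurine (0.89 ± 0.15, adjusted p = 0.00497), were higher in males. Abcg5, one part of the sterol exporter (-1.14 ± 0.21, adjusted p = 0.00937), and Slc51b, one part of the basolateral bile acid exporter (-0.87 ± 0.21, adjusted p = 0.0418), were higher in females. The call of Slc51b was lost without males 3, 4 and 13 (-0.92, adjusted p = 0.0581) and without male 13 and female 4 (-0.70, adjusted p = 0.0892). Cyp7a1, the rate-limiting enzyme of the classical route, differed by -0.64 (adjusted p = 0.348). The probes of Scp2, not among the called genes, disagreed. The brightest differed by 0.24 (adjusted p = 0.385) and another by 0.29 (adjusted p = 0.233), while a dimmer probe passed, at 1.38 (adjusted p = 0.00665).

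In pathways of energy metabolism, and in clock and endoplasmic reticulum stress genes, few members were called. Over all 6512 genes the called share was 3.3%, and with lists this short a lower share is not read as a result. None of 16 cholesterol synthesis, 20 lipogenesis, 29 fatty acid oxidation, 14 gluconeogenesis, 13 clock or 18 endoplasmic reticulum stress genes passed the test. The largest statistics among them belonged to Dgat2 (-0.43, adjusted p = 0.0845) and Acot3 (-1.31, adjusted p = 0.102). Of 15 lipoprotein genes, Apoa4, an apolipoprotein that rises with hepatic fat, was higher in females (-1.26 ± 0.27, adjusted p = 0.0219). Of 23 urea cycle and amino acid genes, Kynu, an enzyme of tryptophan breakdown, was higher in males (0.61 ± 0.15, adjusted p = 0.0375), a call lost without male 13 and female 4 (0.53, adjusted p = 0.0723). Without males 3, 4 and 13 the counts were 2 higher in males for lipogenesis and 2 for fatty acid oxidation.

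Of 36 acute phase, serpin and complement genes 5 were higher in males and 0 in females (1.27% and 2.03% over all genes), with a median of -0.04. They were C6, C8b, Serpina1c (0.64 ± 0.12, adjusted p = 0.0128), Serpina1a (0.53 ± 0.11, adjusted p = 0.0219) and Serpina1e. The Serpina1 genes, which encode alpha-1-antitrypsin, are near copies, and 2 others, Serpina1b and Serpina1d, were at 0.07 and 0.15 and did not pass. The acute phase genes Saa1 and Lcn2 were at -0.78 and -1.51 with adjusted p of 0.722 and 0.281. Of the list, 6 were higher in males and 4 in females without males 3, 4 and 13.

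Immune genes split the males into separate sets. The mean level of 12 antigen-presentation genes was 9.98 in male 4, 9.84 in male 3 and 8.86 in male 13, against 7.13 to 7.37 in males 1, 2 and 9 and 7.58 to 8.31 in females. Its median difference of 0.48 became -0.62 without males 3, 4 and 13, and 4 members were then higher in females. These males were left out because they were the highest in such genes, so a fall had to follow and nothing is read from it. B2m, the light chain of class I molecules, was the one called member (0.50 ± 0.12, adjusted p = 0.0338), with every male above every female. Its call was lost without males 3, 4 and 13 and also without male 13 and female 4. The 14 Kupffer cell markers had means of 8.97 to 9.58 in males 3, 4 and 13 and 7.17 to 7.49 in the other males, around the females at 7.78 to 8.45. None of them was called, and without those males their median of 0.20 became -0.73 and 3 were higher in females. The males were chosen on these markers as well, so this fall, too, had to follow.

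Of 22 interferon-response genes 20 had a positive difference, with a median of 0.30, and 1 was called. This was Bst2, which tethers viruses to the cell surface (1.21 ± 0.28, adjusted p = 0.0326). The mean level of the list was 8.01 in male 3 and 7.71 in male 4 against 6.25 to 6.88 in the other males and 6.38 to 6.88 in females, and the median was -0.09 without males 3, 4 and 13. The 12 neutrophil markers all had negative differences, with a median of -1.24, and 0 passed the test. Their mean was 9.88 in female 4 and 9.76 in male 13, 6.65 to 8.50 in the other females and 5.70 to 7.45 in the other males. Without males 3, 4 and 13 the median was -2.28 and 6 were higher in females, and without male 13 and female 4 it was -1.42 and 0 were called. Males 3, 4 and 13 were the highest males in the neutrophil markers, and males 3 and 4 in the interferon list. Lower medians without them had to follow, so nothing is read from these shifts.

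Of 11 stellate cell and fibroblast markers, 10 had negative differences and 2 were higher in females, the pericyte gene Rgs5 (-1.20 ± 0.18, adjusted p = 0.00284) and the matrix proteoglycan Lum (-0.62 ± 0.12, adjusted p = 0.0164). The mean of this list was 6.95 to 7.56 in males and 7.42 to 7.96 in females. Over all genes 2.03% were called higher in females. None of 17 endothelial, 5 B cell, 5 T and NK cell, 4 erythroid, 2 cholangiocyte, 2 adipocyte or 4 tumour and fetal markers passed. Of 12 hepatocyte markers Apoh was higher in males (0.61, adjusted p = 0.0078). Of 2 tested pancreas genes the amylase gene Amy2a5 was higher in males (0.84 ± 0.20, adjusted p = 0.0355). Its call was lost without male 13 and female 4. The other, the elastase gene Cela1, was detected on all 12 arrays and differed by 0.92 (adjusted p = 0.381), while the protease genes Cpa1, Cpb1, Prss2, Ctrb1 and Cela2a were detected on 0 of 12 arrays. What these cell markers contribute to the sex differences above was not tested. Without males 3, 4 and 13 the differences were 6.46 for Cyp4a12a, 6.19 for Gstp2, 5.65 for Mup2, 3.07 for Cyp7b1, -3.86 for Cyp2b13 and -2.89 for Slc22a26, while that of Dct went from -2.03 to -1.11 and that of Cyp2b23 from -3.02 to -2.16.

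**Figure D4:**
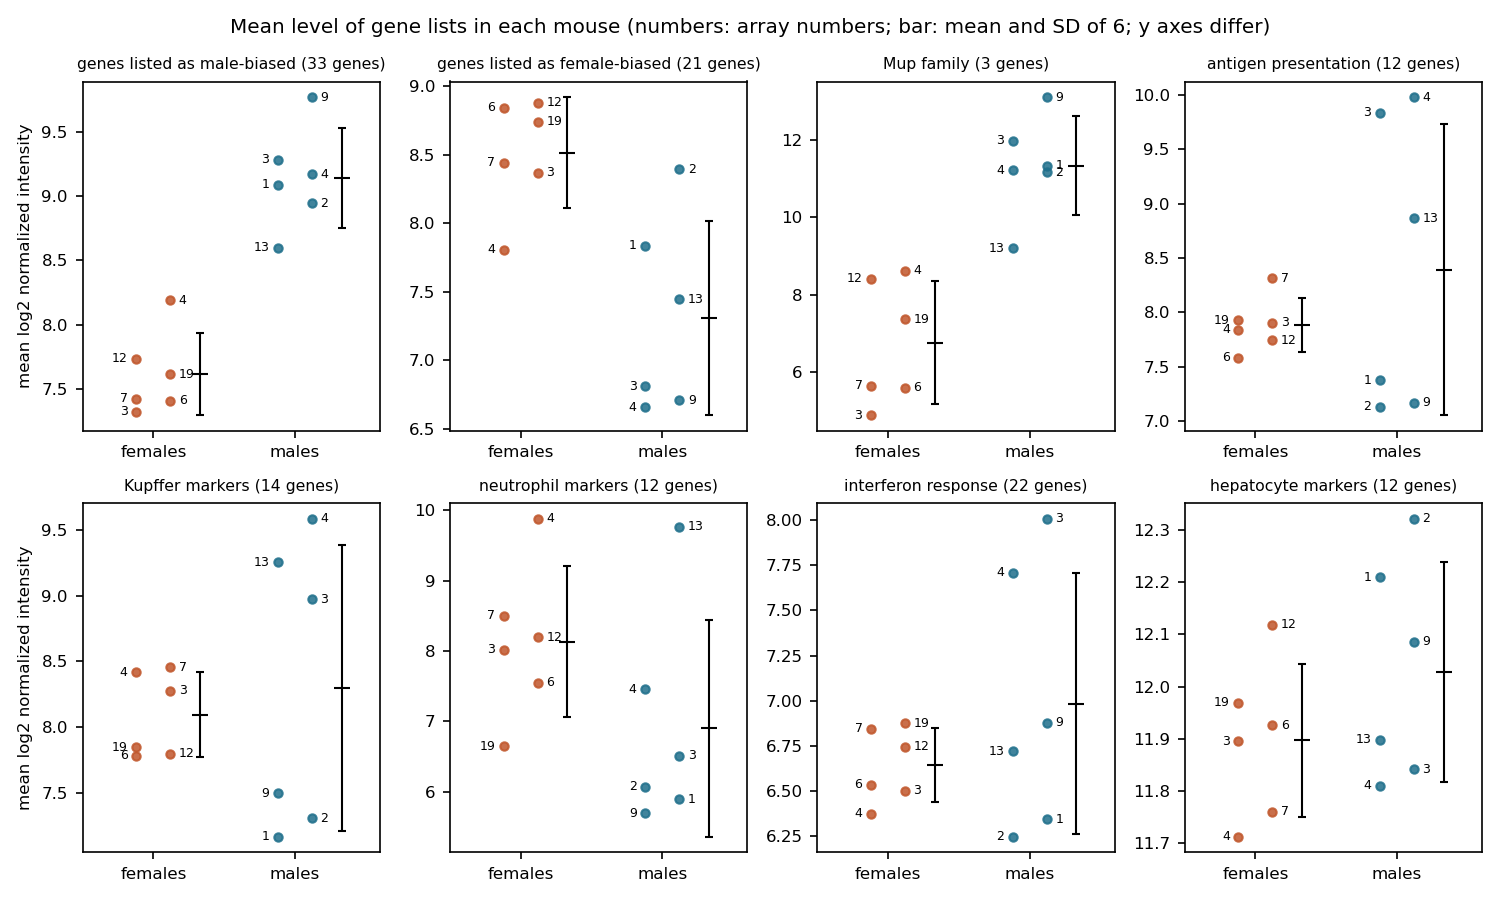
Mean log2 normalized intensity (y axis, with its own range in each panel) of 8 gene lists in each female (orange) and male (blue) DBA2/J mouse fed AL, labelled with array numbers, and the mean and SD as a bar. The male-biased list separates the sexes (8.60 or more in males, 8.19 or less in females), the female-biased list does not (males 1 and 2 at 7.84 and 8.39, female 4 at 7.80), and males 3, 4 and 13 stand apart in antigen presentation and Kupffer markers.

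Averaged over genes, the male-biased list had a mean level of 9.14 ± 0.39 in males and 7.62 ± 0.32 in females (SD, n = 6 each), with male 13 the lowest male at 8.60 and female 4 the highest female at 8.19. The female-biased list had 7.31 ± 0.71 in males and 8.51 ± 0.40 in females. Males 3, 4 and 9 were at 6.66 to 6.81, male 13 at 7.44, male 1 at 7.84 and male 2 at 8.39, so the spread among males was wider than among females. Males 2, 1 and 13, the highest 3 in the female-biased list, were also the lowest 3 in the male-biased list, at 8.95, 9.09 and 8.60.

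The comparison with C57BL/6J asked which of these differences depended on strain. All 12 male-higher genes of largest difference had the same sign in C57BL/6J fed AL and 8 of them were called there, whereas 9 of the 12 female-higher genes had the same sign and 9 were called there, 1 of them, Wfdc2, in the opposite direction. In the fit of all 72 arrays, which gave all C57BL/6J calls here, 433 of 6512 autosomal genes were higher in C57BL/6J males (6.65%) and 324 in females (4.98%). That fit called more in DBA2/J as well, 284 of 8521 probes higher in males and 379 in females, against 109 and 160 with 12 arrays. The C57BL/6J counts are therefore not comparable with the 12-array counts of DBA2/J. The difference between the strains' sex differences, tested as an interaction, passed for 248 autosomal probes (2.91%), 79 of them more male-biased in DBA2/J and 169 less. It was tested on arrays that include those used above, so these values are set side by side and their overlap is not read as a result.

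Mup2 and Mup6 were sex-biased in DBA2/J and bright in both sexes of C57BL/6J. Mup2 averaged 13.65 in C57BL/6J males and 13.13 in females, against 12.07 and 6.98 in DBA2/J, so that the sex differences of 0.52 and 5.09 differed by 4.57 ± 1.04 (adjusted p = 0.0058). For Mup6 the C57BL/6J means were 12.80 and 12.44 and the strain difference was 4.07 ± 0.94 (adjusted p = 0.00637). Mup21 was male-biased in both strains, with C57BL/6J means of 11.13 in males and 7.13 in females against 10.74 and 6.54 in DBA2/J, and its strain difference of 0.20 did not pass the test (adjusted p = 0.93).

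Gstp2 averaged 6.81 in C57BL/6J males and 5.19 in females, and its difference of 1.62 was 4.46 ± 0.45 less than in DBA2/J (adjusted p = 8.89e-11). C4a was at 4.41 and 4.31 in C57BL/6J males and females, near the lowest values of the arrays, and at 7.17 and 4.55 in DBA2/J (strain difference 2.51 ± 0.25, adjusted p = 4.23e-11). Selenbp2 was at 7.87 and 7.76 in C57BL/6J and at 11.25 and 9.24 in DBA2/J (1.89 ± 0.34, adjusted p = 0.000321). In each of these 3 genes the DBA2/J males were the highest of the 4 groups.

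Other genes were more sex-biased in C57BL/6J or, in the case of Wfdc2, biased in opposite directions in the 2 strains. Cyp2d9 averaged 11.67 in C57BL/6J males and 5.14 in females, a difference of 6.53, against 12.14 and 9.10 in DBA2/J (strain difference -3.49 ± 0.52, adjusted p = 1.13e-05), and the strains' females were further apart than their males. Nat8 differed by 3.85 in C57BL/6J and 1.65 in DBA2/J (-2.20 ± 0.36, adjusted p = 5.92e-05). St3gal6, a sialyltransferase, was higher in C57BL/6J females (-2.16) and differed by 0.12 in DBA2/J (2.28 ± 0.30, adjusted p = 4.68e-07). Wfdc2 was higher in males in C57BL/6J (1.23) and in females in DBA2/J (-1.60), a strain difference of -2.83 ± 0.43 (adjusted p = 1.66e-05).

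Olig1, a transcription factor best known from glia, differed by 2.51 in C57BL/6J and 0.00 in DBA2/J (-2.51 ± 0.61, adjusted p = 0.0101). In Mfsd2a, a lipid transporter, the DBA2/J males fell in separate sets, with males 1, 2 and 13 at 9.18 to 9.85 and males 3, 4 and 9 at 5.06 to 5.17, against 8.86 to 10.27 in the females. Its sex difference of -2.31 ± 0.86 did not pass in DBA2/J (adjusted p = 0.178), and the strain difference was -2.27 ± 0.66 (adjusted p = 0.0397).

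The comparison with 40% CR asked which sex differences of AL-fed DBA2/J mice depended on diet. The sex difference changed with diet at 1052 autosomal probes (12.3%), 569 of them towards males and 483 towards females under CR. For the 12 male-higher genes of largest difference the median was 3.55 under AL, 2.43 under 20% CR and 1.10 under 40% CR. For the 12 female-higher genes it was -2.41, -1.19 and -0.28. These genes were chosen for their difference under AL, so the medians are a description with no test.

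Some female-type genes were high in the males on 40% CR, and those named here were chosen for the largest change. Of 21 tested genes listed as female-biased, 7 had a called change of the sex difference, all towards males. Over all 6512 genes the called share was 12.2%. Cyp2b13 averaged 10.12 in males and 10.36 in females on 40% CR, 7.48 and 10.19 on 20% CR, and 4.99 and 9.21 under AL, a change of the sex difference by 3.97 ± 0.92 (adjusted p = 0.00224). Cyp2b9 averaged 9.85 and 10.02 in males and females on 40% CR, against 6.41 and 9.70 under AL (3.11 ± 0.88, adjusted p = 0.012). Slc22a26 averaged 8.37 and 8.55 on 40% CR, against 4.91 and 8.07 under AL (2.98 ± 0.66, adjusted p = 0.00144). Lrtm1 averaged 7.83 and 7.76 on 40% CR, against 5.10 and 8.21 under AL (3.19 ± 0.49, adjusted p = 1.1e-05), and Cyp2b23 changed by 2.71 ± 0.77 (adjusted p = 0.0129). In these 5 genes the level of the males moved between the diets by more than that of the females.

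Some male-type genes were lower in the males on 40% CR, and those named here were again chosen for the largest change. Of 33 tested genes listed as male-biased, 11 had a called change, 10 of them towards females. Gstp2 averaged 5.95 in males and 5.02 in females on 40% CR, 8.39 and 4.92 on 20% CR, and 11.00 and 4.91 under AL, a change of -5.15 ± 0.45 (adjusted p = 4.68e-13). Cyp4a12a averaged 6.10 and 4.33 on 40% CR, against 10.86 and 4.53 under AL (-4.56 ± 0.86, adjusted p = 0.000208). Mup21 averaged 6.65 in both sexes on 40% CR, against 10.74 and 6.54 under AL (-4.21 ± 0.82, adjusted p = 0.000327). Cyp4a12b changed by -3.76 ± 0.59 (adjusted p = 1.33e-05).

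Mup2 and Mup6 did not pass this test (adjusted p = 0.328 and 0.22). Pdk4, a kinase that shuts off glucose oxidation and responds to fasting, had the opposite pattern: its sex difference was 0.25 under AL and -3.12 on 40% CR, where females averaged 10.01 and males 6.88 (-3.37 ± 0.76, adjusted p = 0.00179). Since CR mice had gone longer without food, diet and fasting cannot be told apart in any of these values.

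**Figure D5:**
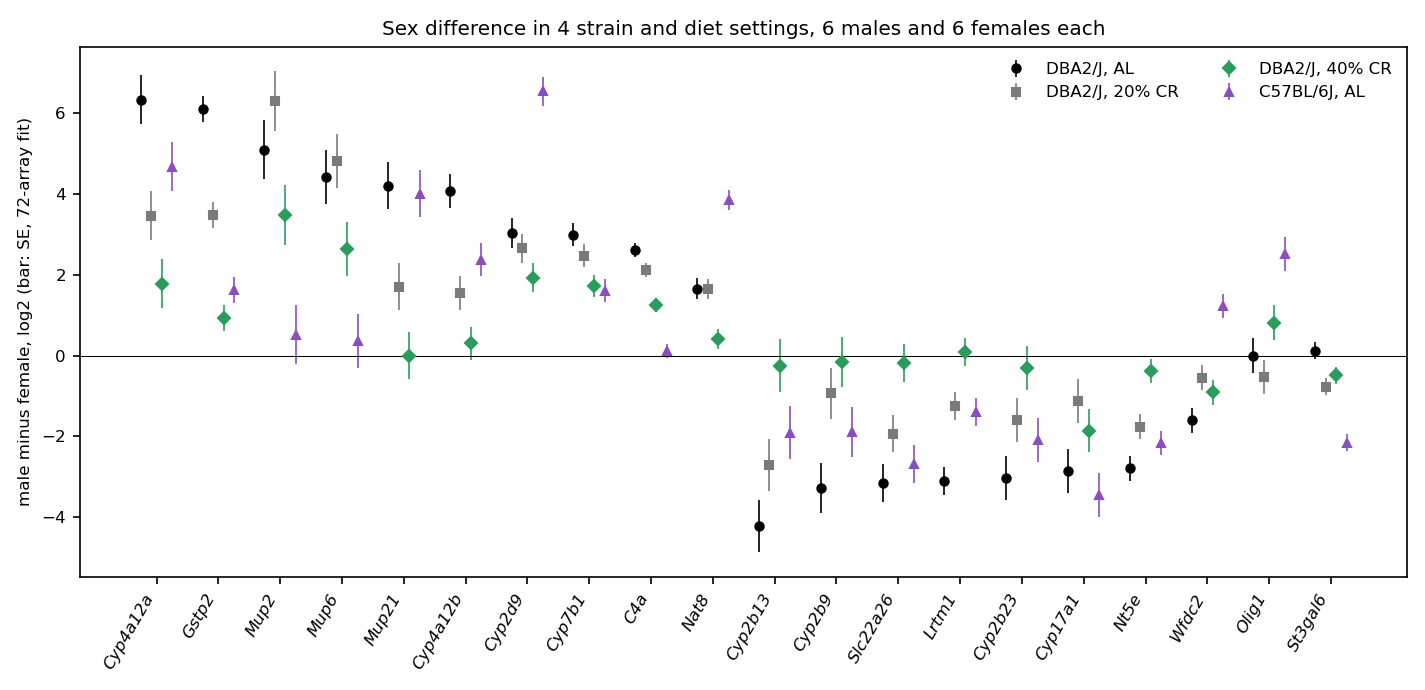
Male minus female difference (log2, y axis) of 20 genes in DBA2/J mice fed AL, on 20% CR and on 40% CR and in C57BL/6J mice fed AL, each from 6 males and 6 females, with SE bars from the fit of all 72 arrays. Gstp2 falls from 6.09 under AL to 3.46 and 0.93 on CR, Cyp2b13 goes from -4.22 to -2.71 and -0.25, and Mup2 is at 5.09 in DBA2/J and 0.52 in C57BL/6J.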

How the data were processed

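Liver RNA of 72 mice was hybridised to Illumina expression arrays and read with GenomeStudio 2011.1, per the submitters' processing notes. The deposited table gives 1 intensity per probe and array, with no normalization stated, and a detection p-value per probe, per the file headers. The series table deposited by the authors holds a score, which matched a z-score of log10 intensity within each array on 72 of 72 arrays (tolerance 5e-09). No column of the files was left out (0 unused).

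Intensities of all 72 arrays were background-corrected and quantile-normalized with neqc (limma 3.58.1 in R 4.3.3, offset 16), which uses the detection p-values, and put on a log2 scale. Of 25697 probes, 23978 had 1 gene symbol, 0 several and 1719 none in the platform annotation, and 8 symbols were updated through RefSeq. Probes with detection p under 0.01 on 6 or more of the 12 arrays were tested (9285, of which 8521 autosomal, 223 on X, 1 on Y and 540 with no placed gene), and 14558 autosomal probes failed this filter. A member that passed in one sex only had to differ. The sex difference was fitted with lmFit and eBayes on the 12 arrays, two-sided, with Benjamini-Hochberg adjustment over all tested probes. Differences between strains and diets were tested as interactions in 1 fit of 72 arrays with 12 group means. The brightest probe stood for a gene, and 1518 genes had several.

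Named were the 12 genes of largest difference each way past the threshold, the 4 members of each list with the largest statistic, and the 5 genes of largest difference each way in the interactions. Further genes, such as members of a pathway that did not pass, other probes and Cyp2b9, were chosen after their values were seen. The members and lists were chosen with earlier results of these data known. Alternatives covered normalization, the scores, the filter, the arrays in the fit, array weights, the replicate number as a block and leaving out arrays.

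Groups came from the sample titles. The source names of male samples carry a female code, and the titles and recorded sex were used. Intensity columns carry array numbers and no replicate number, so mice are called by array number. Replicate numbers were checked for pairing on the scores, where deviations of same-numbered males and females correlated between -0.37 and 0.27. This gave no sign of pairing but cannot exclude it, and the labels do not say what the numbers mark. Nothing says that mice of a group came from separate litters. The number of arrays limits the precision. On simulated data for the sex comparison over 9285 probes, the fit recovered 83 of 100 probes changed by 1 log2 unit and 98 of 100 changed by 2, with 7 false calls among 9085.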

Additional observations from a re-analysis of the deposited data

Results flagged for a closer look

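In 15 of 280 groups of 6 mice tested, 1 mouse lay far from the other 5, and chance gives about 1 in 20. Female 4 accounted for 7 of them. It was the highest female in Cyp4a12a (5.29), Cyp2d9 (11.10, others 8.14 to 9.03), Susd4 (5.45), C4a (5.29) and Ugt3a2 (12.46), and the lowest in Nt5e (8.27) and Sult1c2 (4.70). Female 4 also had the highest mean level of neutrophil markers (9.88), whose part in these values was not tested.

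Male 13 was the lowest male in Mup2 (10.12, others 12.12 to 13.23) and in the mean of the glutathione transferase genes (8.99, others 9.73 to 10.16), and the highest in Rcan2 (4.37). Male 2 was the highest male in Psg26 (5.87) and Onecut2 (8.66). Male 9 was the highest in Cyp7b1 (12.56) and in the mean of the liver sex regulators (7.74). Female 3 was the lowest female in St3gal6 (5.28).

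The sex difference under AL differed between the strains, by the interaction test, in Mup2 (4.57), Gstp2 (4.46), Mup6 (4.07), C4a (2.51) and St3gal6 (2.28), which were more male-biased in DBA2/J. It differed the other way in Nat8 (-2.20), Mfsd2a (-2.27), Olig1 (-2.51), Wfdc2 (-2.83) and Cyp2d9 (-3.49).

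The sex difference of DBA2/J mice differed between 40% CR and AL in Cyp2b13 (3.97), Lrtm1 (3.19), Cyp2b9 (3.11), Slc22a26 (2.98) and Cyp2b23 (2.71), and the other way in Pdk4 (-3.37), Cyp4a12b (-3.76), Mup21 (-4.21), Cyp4a12a (-4.56) and Gstp2 (-5.15).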

How the results depend on the processing

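No called value changed sign under the alternatives run. Uncalled ones did: without males 3, 4 and 13 St3gal6 went from 0.12 to -0.40, Fmo1 from -0.38 to 0.27 and Slc22a7 from -0.29 to 0.13, and Sult1d1 went from 0.21 to -0.11 without male 13 and female 4 and to -0.004 without male 2. St3gal6 was also at -0.10 without male 13 and female 4. Of the values of named genes in the DBA2/J comparison 2007 kept their side of the threshold, 132 lost it and 33 gained it. The counts were less stable. Against 109 male-higher and 160 female-higher probes, the authors' z-scores gave 61 and 95, the fit of all 72 arrays 284 and 379, and array weights 200 and 243. Leaving out males 3, 4 and 13 gave 278 and 381, and leaving out male 13 and female 4 gave 165 and 219, both chosen after seeing the data. Leaving out 1 array gave 64 to 195 and 93 to 233, with the highest counts without male 13 and the lowest male-higher count without female 3 or male 3. With the replicate number as a block, on the z-scores, 22 and 22 probes were called, and whether the numbers pair the samples is not settled. The strain difference of 248 probes became 148 with the z-scores, 107 in the fit of the 24 AL arrays alone, 156 with the replicate block and 171 to 295 without 1 array. The diet difference of 1052 probes stayed within 1.5 times. Fits with fewer arrays have fewer degrees of freedom, and the cause of these shifts was not tested. Of the 24 genes of largest difference, 16 were called under every alternative. Mup21, Selenbp2 and Psg26 lost the call under the replicate block alone, Dct under 2 alternatives, Wfdc2 under 4, Cyp2b23 under 7, and Keg1 and Cyp17a1 under 9 each. Probes near background, such as Foxa1, Slc51b and Gsta2, have compressed differences.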

Other observations

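Genes on the X chromosome, outside the autosomal comparison, gave 3 probes higher in males and 7 higher in females of 223 tested. Alas2, the erythroid enzyme of haem synthesis, ran from 7.85 to 9.55 in males and from 5.78 to 6.96 in females (2.02 ± 0.29, adjusted p = 0.0017), while 0 of 4 tested autosomal erythroid markers passed. Tceal8, a transcription elongation factor relative, ran from 6.81 to 7.87 in females and from 5.17 to 5.80 in males (-2.11 ± 0.18, adjusted p = 1.9e-05). Kdm6a and Eif2s3x, which are known to escape X inactivation, differed by -0.71 (the brighter of its probes) and -0.42, with every female above every male.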
